A study of Mus musculus with 8 samples.

Results

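The response of mouse kidney endothelium to lipopolysaccharide (LPS), a component of the outer wall of gram-negative bacteria, was measured by setting 3 libraries from LPS-injected wild-type (WT) mice against 2 libraries from saline-injected WT mice. These 5 libraries were taken by their genotype and treatment labels out of 8 in the series, and no gene was preselected. Of the 23930 genes on the sequencing panel, 12820 passed a read filter over all 8 libraries and were tested. Some of these had few or no reads in the 5 WT libraries. The LPS mice (LPS 1, LPS 2 and LPS 3) received 250 µg in a volume of 250 µl by intraperitoneal injection, the saline mice (saline 1 and saline 2) the same volume of sterile saline, and kidneys were taken 14 hours later. Each library came from 1 mouse. The labels' protocols describe mice with a ribosomal protein fused to a green fluorescent protein (EGFP/Rpl10a) that tamoxifen switches on through Cre recombinase under an endothelial driver (cdh5-CreERT2). Libraries were made with an Ion AmpliSeq mouse transcriptome panel. Tagged ribosomes were pulled down, so by these labels the RNA stands for messages bound to ribosomes of cells in which the driver was active. Strain, age and sex of the mice are not given, and the WT label does not say whether the WT mice carried the tagged protein and the driver. The extraction label speaks of minced kidney lysed in Trizol and does not mention the pull-down. Another 3 libraries, from mice labelled SOCS3iKEO (1 after saline and 2 after LPS), entered the fit and are not described. The 2 after LPS add to the estimate of the spread between replicates. The 1 after saline has no replicate and does not.

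Endothelial cells line blood vessels and sense LPS through Toll-like receptor 4, whose signal activates the transcription factor NF-kB and induces chemokines, cytokines and adhesion molecules. Cytokines made in the body act on the same cells later through STAT factors and interferon receptors, which induce acute-phase genes, guanylate-binding proteins and the machinery of antigen presentation. In the kidney the endothelium of peritubular capillaries, glomeruli and larger vessels sits close to the tubule epithelium, which is far more abundant in the organ.

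Library totals were 14262704 and 14877519 reads after saline and 11002719 to 13507981 after LPS, and 14501 to 15715 genes had at least 1 read. Levels are given as reads per 1000000 panel reads (RPM), scaled between libraries by the trimmed mean of M values (TMM) and called scaled RPM, in the order of the library numbers. Each gene is read through 1 amplicon, so levels are compared between mice, and an order of genes is one of panel reads and not of message abundance. Endothelial markers were read in every library, for example Cdh5 (VE-cadherin) at 247 and 283 scaled RPM after saline and 369, 313 and 339.6 after LPS. Of 21 such markers, 6 passed the test given below as lower and 2 as higher, and Cdh5 was in neither group. Their median log2 fold change was -0.22. Tubule messages were also present: 18 proximal tubule markers summed to 2868 and 2878 RPM as deposited after saline and to 1332, 1564 and 2239 after LPS. The corresponding sums of the 21 pan-endothelial markers were 13952 and 14798 after saline and 7989, 10289 and 10371 after LPS. In scaled RPM the tubule sums were 2272 and 2304 after saline and 1339, 1466 and 2222 after LPS. The endothelial sums in scaled RPM were 11053 and 11847 after saline and 8034, 9645 and 10289 after LPS. The part of either marker set in the gene results was not tested. Reads on 4 Y-linked genes numbered 3805 in saline 2, 3987 in LPS 2 and 3320 in LPS 3 against 2 in saline 1 and 3 in LPS 1, so both treatments hold mice of both kinds. Both WT saline mice carry lower animal numbers than the WT LPS mice, so any difference between such series and the effect of LPS cannot be told apart. Socs3, the feedback inhibitor of cytokine signalling that the other genotype label names, was at 0.5 and 0.161 scaled RPM after saline and 9.94, 1.18 and 2.34 after LPS and did not pass the test in WT (log2 fold change 1.71, SE 0.57, adjusted p = 0.0711).

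LPS was followed by changes in both directions. Chemokines, proteasome subunits, ribosomal proteins and charging enzymes of transfer RNA were called higher far more often than all genes, and nuclear receptors, tetraspanins and conjugating enzymes lower, as counted by class further on. At a Benjamini-Hochberg adjusted p under 0.05 with limma, 878 genes (6.85% of those tested) were called higher and 1127 (8.79%) lower. Genes called higher took 10.6% of the reads of each saline library and 25.6%, 21.1% and 23.1% of the reads of the LPS libraries. Genes called lower went from 8.13% and 7.72% of the reads to 1.97%, 2.80% and 2.43%. The median log2 fold change of the called genes was 1.23 and -1.27, where fold changes are on the log2(scaled RPM + 1) scale and understate the change of genes with low values. With RPM as deposited, without scaling between libraries, 586 (4.57%) were called higher and 2366 (18.5%) lower, and the median over all genes moved from -0.02 to -0.26, a shift of 0.24. The TMM factors behind this were 1.26 and 1.25 in the saline libraries and 0.994, 1.07 and 1.01 in the LPS libraries. All 878 higher and all 1127 lower genes kept their sign on RPM as deposited, where 580 and 1127 of them were also called. EdgeR on the recovered reads called 923 (7.2%) higher and 1142 (8.91%) lower, and limma on the 5 WT libraries alone 1109 (8.65%) and 1424 (11.1%).

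The largest changes on the log2(scaled RPM + 1) scale were mostly increases. On this scale a decrease cannot exceed the saline level of a gene, while an increase has no such bound. Genes in the 3 lowest bins by saline level, which end at 4.85, could therefore not fall by 5. At a log2 fold change of 1 or more 609 called genes were higher and 873 lower, at a log2 change of 2 or more 167 and 158, at 3 or more 63 and 31, at 4 or more 33 and 5, and at 5 or more 14 and 2. The gene that moved most, Lcn2 (lipocalin 2, which binds bacterial siderophores), read 1.67 and 1.13 scaled RPM after saline and 3555, 2869.8 and 3423 after LPS. Mctp2, which encodes a calcium-binding membrane protein (chromosome 7, 72077830 to 72306608, minus strand), went from 1.17 and 2.58 to 371, 388 and 459.5 scaled RPM (log2 fold change 7.19, SE 0.31, adjusted p = 1.27e-05). For both genes the saline and LPS values were far apart. Npr3, the clearance receptor of natriuretic peptides, went the other way, from 103 and 183 to 1.09, 2.98 and 2.80 scaled RPM (log2 fold change -5.45, SE 0.35, adjusted p = 5.03e-05), as did Igfbp5, which binds insulin-like growth factors (chromosome 1, 72857932 to 72874884, minus strand), from 1214 and 1423 to 20.97, 44.2 and 45.8 scaled RPM (log2 fold change -5.19, SE 0.43).

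**Figure D1:**
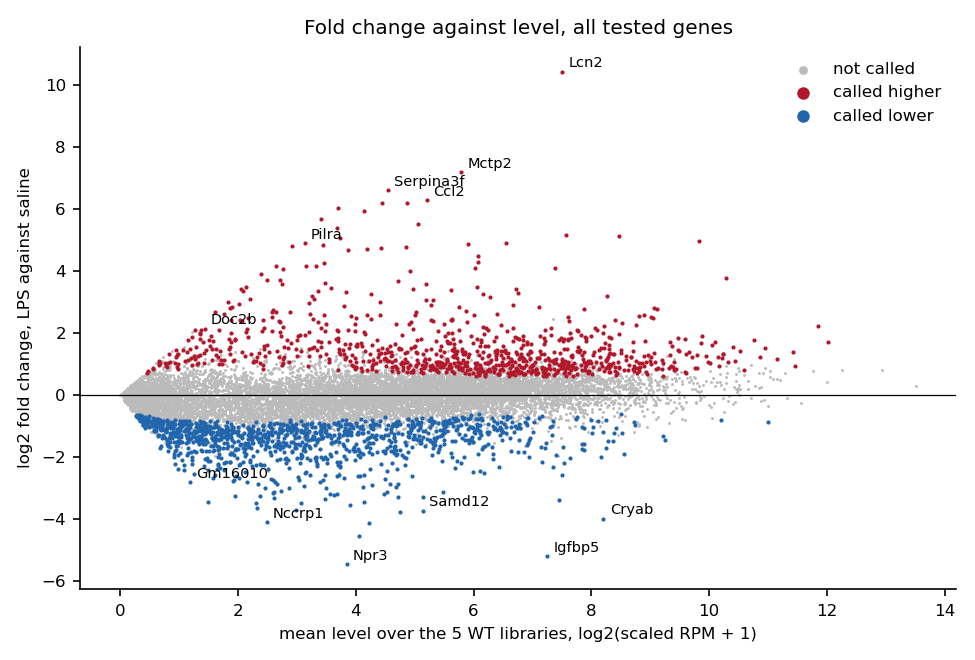
Each point is 1 of the 12820 tested genes, placed by its mean level over the 5 WT libraries (x axis, log2(scaled RPM + 1)) and its log2 fold change, LPS against saline (y axis). Red points are the 878 genes called higher, blue points the 1127 called lower and grey points the rest, and the red points lie mostly toward the right and the blue points toward the left.

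The direction of the calls changed with expression level. When the tested genes were cut into 5 equal bins of 2564 by mean level, the share called higher was 1.87%, 4.33%, 5.03%, 7.80% and 15.2% from the lowest bin to the highest. The share called lower was 10.6%, 14.5%, 8.58%, 6.28% and 3.94%. The bins were bounded at 1.76, 9.13, 27.7 and 77.0 scaled RPM. The median log2 fold change of all genes in a bin ran from -0.20 and -0.26 in the 2 lowest to -0.04, 0.10 and 0.26 in the others. The median absolute log2 fold change was 0.37, 0.49, 0.36, 0.36 and 0.40 on this scale, where the added 1 shrinks changes of low genes, and 1.09, 0.59, 0.38, 0.37 and 0.40 with edgeR on the reads. The median standard error with limma was 0.26, 0.30, 0.27, 0.24 and 0.23. Counting reads with edgeR gave 3.04% and 14.5% called higher and 9.56% and 3.90% called lower in the lowest and the highest bin. On RPM as deposited the shares called higher were 2.11% and 8.74% and those called lower 21.2% and 10.8% at these ends.

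A mean over LPS and saline libraries places a gene that rose in a higher bin and a gene that fell in a lower one. With bins set by the saline libraries alone, which share their error with the fold change in the other direction, the shares called higher were 5.69%, 4.02%, 5.85%, 7.33% and 11.4% and those called lower 5.03%, 14.0%, 9.63%, 7.80% and 7.45%. The highest bin thus held the most increases under both ways of binning, while the fall in the share called lower from the second to the fifth bin was less steep with the saline levels.

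**Figure D2:**
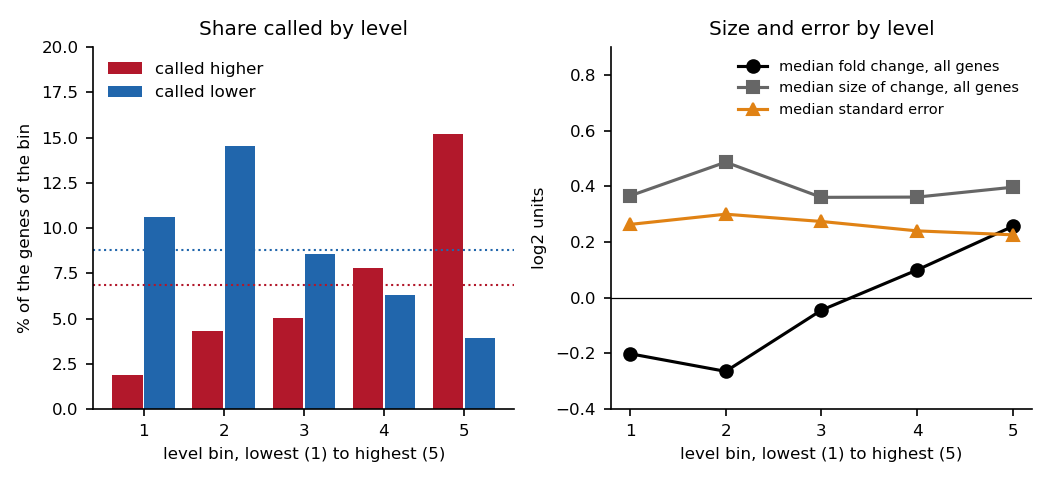
Left, the share of the 2564 genes of each level bin that were called higher (red bars) or lower (blue bars), with dotted lines at 6.85% and 8.79% for all tested genes. Right, the median log2 fold change (black circles), the median absolute log2 fold change (grey squares) and the median standard error (orange triangles) of all genes in each bin, all on the log2(scaled RPM + 1) scale. The first runs from -0.20 to 0.26, and the low bins of the second depend on that scale.

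The 2 genes with the largest change in each direction show what each bin holds. In the lowest bin Doc2b, a calcium sensor of vesicle fusion, went from 0.0555 and 0.161 to 3.54, 4.72 and 3.52 scaled RPM and Vgf, which encodes a precursor of secreted neuropeptides, had no saline read and a fitted log2 fold change of 2.11. Among the decreases there were Gm16010, an unnamed transcript (-2.79), and Cbln1, a secreted synapse organiser (-2.54), and in both saline 1 was several times saline 2. The next bin was led by Pilra, an inhibitory immune receptor (from 0.167 and 0.108 to 17.5, 45.7 and 44.995 scaled RPM), and by the fibrinogen chain Fgb, and on the other side by Nccrp1 (-4.10) and the urea transporter Slc14a1 (-3.69). Serpina3f (6.62) and the fibrinogen chain Fga (6.18) led the middle bin, with Npr3 and Btnl9 (-4.55) below zero. Ccl2 and Mctp2 led the fourth bin, opposite Samd12 (-3.72) and Pcp4l1 (-3.28). In the highest bin Lcn2 and AA467197 (from 54.3 and 8.07 to 2334, 453 and 472 scaled RPM) rose most, and Igfbp5 and the small heat shock protein Cryab (from 3631 and 654 to 62.5, 100.5 and 144 scaled RPM) fell most. For Cryab, as for every gene called lower, both saline values lay above all LPS values. The gap between its saline libraries was itself larger than the gap from saline 2 to the highest LPS value.

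The genes with the most panel reads changed as well. Of the 100 with the most reads after saline, 69 were also among the 100 with the most after LPS, 29 of the 31 that entered were called higher and 6 of those that left were called lower. The 10 genes with the most reads took 5.07% and 4.91% of reads after saline and 7.05%, 6.21% and 6.92% after LPS. Rgcc, a regulator of the cell cycle linked to complement, had the most reads of the genes called higher, from 1657 and 2496 to 5376, 6787 and 8032 scaled RPM (log2 fold change 1.71, SE 0.29, adjusted p = 0.00642). Igfbp3, of the same protein family as Igfbp5, went from 1035 and 2053 to 5604, 5712 and 9735 scaled RPM (log2 fold change 2.22, SE 0.38), in the opposite direction. Among the genes with the most reads that were called lower were Plvap, which forms the diaphragms of endothelial fenestrae (from 2864 and 2989 to 1312, 1616 and 1938 scaled RPM, adjusted p = 0.0388), and Gng11, a G protein subunit (from 973 and 1069 to 377, 516 and 361 scaled RPM, adjusted p = 0.00747). The call of Plvap was kept in 1 of the 5 fits that left out a WT library, and that of Gng11 in 3.

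Genes switched between unread and read were few at useful depth. There were 1596 genes with no read in either saline library and a read in some LPS library, but 4 of these had 10 or more reads in each LPS library. Csf3, which encodes the granulocyte colony-stimulating factor, had 0 saline reads and 1126, 387 and 548 LPS reads, at least 348-fold higher when 3 reads in each saline library are taken as the floor. Vgf had 58, 45 and 26 LPS reads and was at least 21.04-fold higher by the same floor. Saa2, a serum amyloid, and Krt20, a keratin of epithelium, were high in LPS 1 and low in LPS 2 and LPS 3, at 0 and 0 scaled RPM after saline and 46.1, 2.36 and 6.67 after LPS for Saa2 and 0 and 0 scaled RPM after saline and 28.1, 0.278 and 0.812 after LPS for Krt20, and the latter did not pass the test (adjusted p = 0.234). Sh2d5 had the same shape, and Saa4 did not pass the test (adjusted p = 0.0513). In the other direction 106 genes had 10 or more reads in each saline library and at most 3 in each LPS library, against 28 genes with the reverse pattern, and 7 of the 106 had no LPS read. Capsl, a calcium-binding protein, went from 75 and 88 reads to 2, 2 and 1, and Cthrc1, a secreted matrix-associated protein, from 120 and 36 reads to 0, 0 and 1. Gm16010, Gm2694, Gm32860 and Calca, the gene of calcitonin and its related peptide, were the other genes of this kind with the highest saline levels. These floors cover counting error only. The thresholds of 10 and 3 reads are also not scaled for depth. Saline libraries had more reads, and TMM factors of 1.26 and 1.25 against 0.994, 1.07 and 1.01 after LPS. This favours the pattern of the 106 genes over its reverse.

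The 3 LPS libraries differed in the size of the changes. Over all tested genes, 26.7% had every LPS value above both saline values and 29.7% every LPS value below them. All called genes were among these, which the test itself favours. The median difference from the saline mean over genes called higher was 1.42 in LPS 1, 1.10 in LPS 2 and 1.18 in LPS 3, and over genes called lower -1.46, -1.12 and -1.23, all on the log2 scale. LPS 1 was the highest of the 3 for 542 of the genes called higher (61.7%) and the lowest for 711 of those called lower (63.1%). Among the 10815 genes not called LPS 1 was highest for 40.8%. LPS 1 and saline 1 are the libraries of this comparison with the few Y-linked reads given above, and with a term for such reads 962 genes were called higher and 1203 lower.

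Some genes differed widely between the LPS mice. Over the LPS libraries the median standard deviation (SD) of the log2 level was 0.28 for genes called higher, 0.26 for genes called lower and 0.24 for all tested genes. Fgb, a fibrinogen chain made mainly by liver, had the widest spread, from 0.0555 and 0 to 107, 6.11 and 30.2 scaled RPM, followed by Saa2 and by Akap12, a scaffold of protein kinase A, which went from 1.33 and 1.61 to 108, 10.6 and 21.6 scaled RPM. Inhbb, which encodes the activin beta B chain (chromosome 1, 119415465 to 119422248, minus strand), went from 14.9 and 5.92 to 572, 69.1 and 319 scaled RPM (log2 fold change 4.48, SE 0.74, adjusted p = 0.00537), Spp1 (osteopontin) from 45.9 and 14.7 to 865, 104 and 211 scaled RPM and the actin-binding drebrin Dbn1 from 4.33 and 5.06 to 221, 32.6 and 51.7 scaled RPM. In all 6 LPS 1 was highest and LPS 2 lowest. All 3 LPS values lay above both saline values, as in every gene called higher.

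Other genes rose to nearly the same level in each mouse. Nr2f2, a nuclear receptor that specifies venous identity (COUP-TFII, chromosome 7, 70351944 to 70366735, minus strand), was at 355 and 512 scaled RPM after saline and 1565, 1603 and 1581 after LPS (log2 fold change 1.89, SE 0.25, adjusted p = 0.00192). Tnip1, which restrains NF-kB signalling with the deubiquitinase A20, went from 121 and 159 to 713, 699 and 697 scaled RPM (log2 fold change 2.33, SE 0.19). Tinagl1, a matrix protein of vessels, went from 174 and 157 to 1139.6, 1173 and 1175 scaled RPM (log2 fold change 2.81, SE 0.38), and Plcb4, Gpr182 and Nectin2 were the other genes with the smallest spread after LPS. Gpr182, an endothelial scavenger of chemokines, went from 74.7 and 57.4 to 152, 151 and 157 scaled RPM. For Nr2f2 the saline libraries differed far more from each other than did the LPS libraries.

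**Figure D3:**
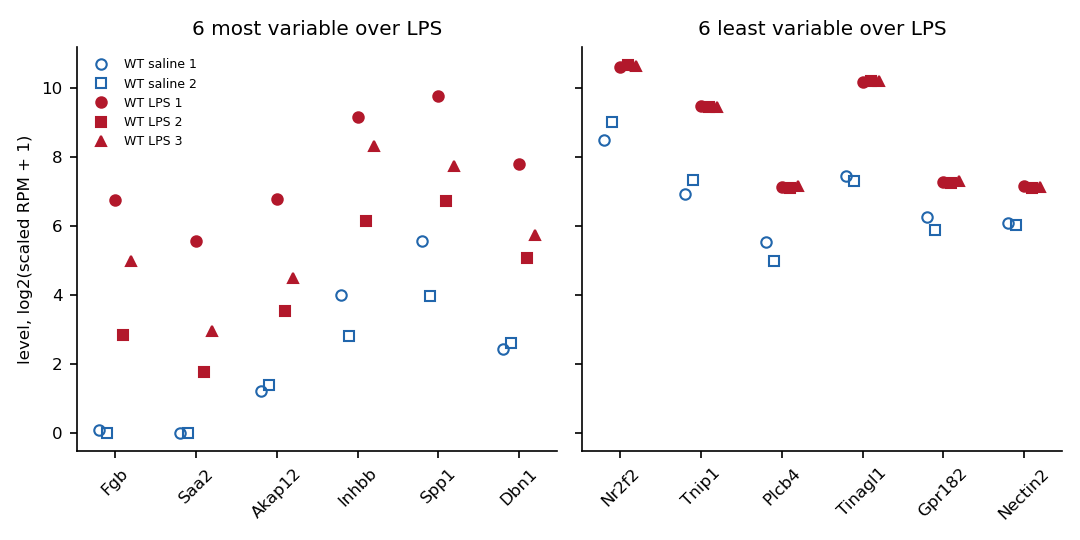
Level of the 6 called genes with the largest (left) and the 6 with the smallest (right) SD over the LPS libraries, as log2(scaled RPM + 1), with open blue symbols for the 2 saline libraries and filled red symbols for the 3 LPS libraries. LPS 1 (red circle) is highest in every gene on the left, and the red symbols nearly coincide on the right.

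Leaving out 1 mouse at a time showed how much each call rests on few animals. Counts called higher and lower were 773 and 808 without LPS 1, 668 and 792 without LPS 2, 503 and 592 without LPS 3, 156 and 184 without saline 1 and 206 and 343 without saline 2. Without a saline mouse the arm holds 1 library, which is then assumed to vary like the other groups. Of the genes called with all libraries, 130 higher and 145 lower were called in all 5 of these fits. Among these firmest calls were Ccl2, Lcn2, Mctp2, Csf3, Nr2f2 and Tnip1 upward and Npr3, Igfbp5, Btnl9 and Samd12 downward.

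The whole table was then sorted into 74 functional classes by gene symbol, which held 3919 distinct tested genes. Of the 71 classes with 10 or more tested members, 12 had a share called higher above 3 times the 6.85% of all genes and 4 a share called lower above 3 times the 8.79%. The classes are described by their counts and by their median log2 fold change beside -0.02 for all genes. The shares of all genes are not matched for expression level. In the highest level bin 15.2% of genes were called higher, and in the second 14.5% lower. With RLE size factors in place of TMM the class medians moved by about 0.01 at most, so where a second median is given it is that on RPM as deposited.

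**Figure D4:**
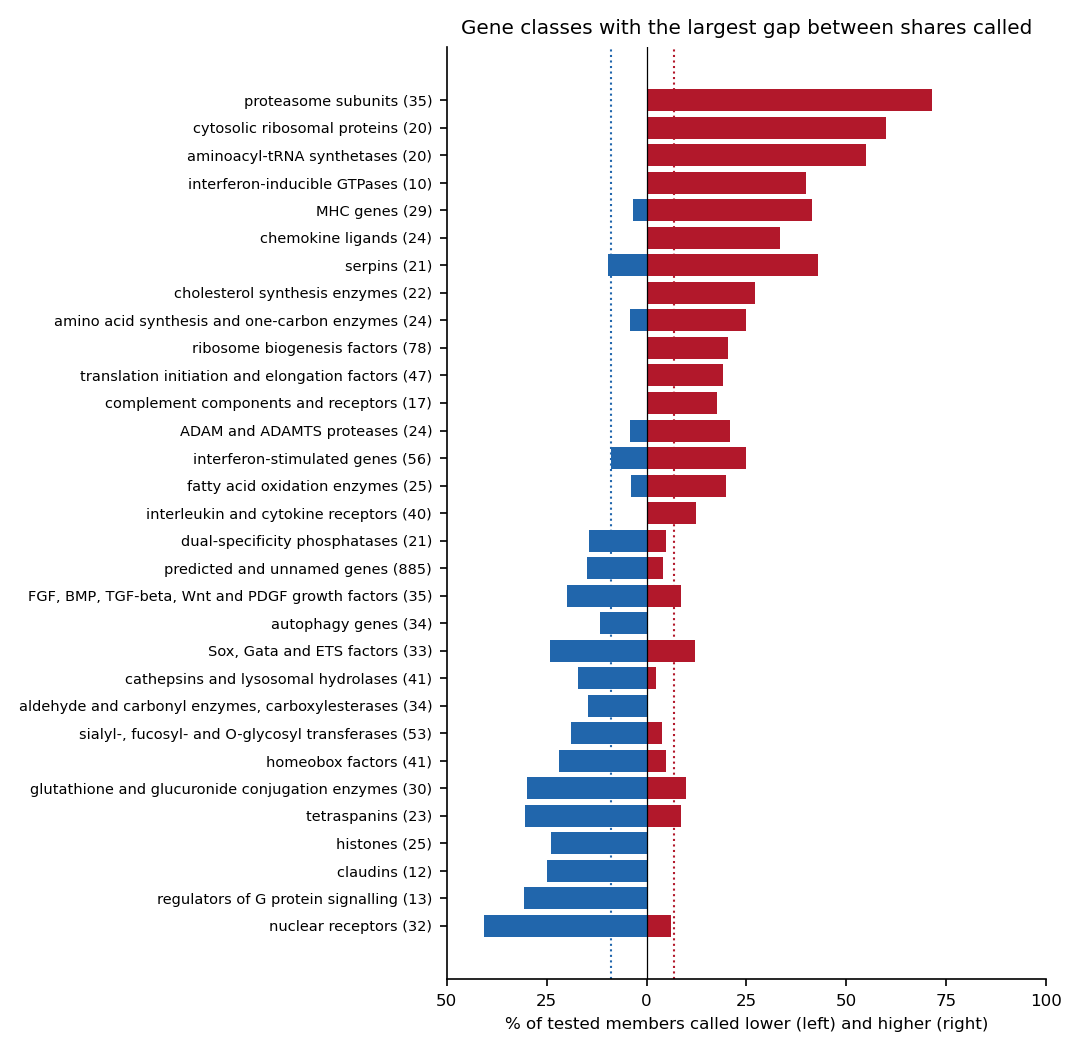
Share of tested members called higher (red, to the right) and lower (blue, to the left) in the classes of 10 or more members with the largest excess of each direction (1 such class is not reported here), with the number tested in brackets and dotted lines at 6.85% and 8.79% for all tested genes. Proteasome subunits lead at the top with 71.4% called higher, and nuclear receptors stand at the bottom with 40.6% called lower.

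Extracellular signals came first by the size of single changes. Of 24 chemokine ligands tested, 8 were called higher and 0 lower (median 0.49, and 0.38 on RPM as deposited). Ccl2, which attracts monocytes, went from 1.56 and 1.88 to 176, 251 and 207 scaled RPM (log2 fold change 6.27, SE 0.29), and Ccl5, which attracts T cells, from 0.889 and 0.646 to 42.5, 27.1 and 25.3 scaled RPM (log2 fold change 4.17, SE 0.28). The neutrophil attractant Cxcl1 was at 11.8 and 9.15 scaled RPM after saline and 227, 181 and 259.9 after LPS, even across the LPS mice, whereas the interferon-induced Cxcl9 was at 5.61 and 8.39 scaled RPM after saline and 499, 212 and 117 after LPS and differed by more than 4-fold between LPS 1 and LPS 3. Chemokines called higher numbered 5 without saline 1, and those called lower 1 without LPS 1 and 2 on RPM as deposited. Among 40 cytokine receptor chains 5 rose and 0 fell (median 0.12, and -0.11 as deposited). Il4ra, the receptor chain of interleukins 4 and 13, went from 15.3 and 19.96 to 183, 124 and 237 scaled RPM (log2 fold change 3.25, SE 0.28, adjusted p = 0.000253). Osmr, the oncostatin M receptor, went from 8.22 and 9.74 to 45.5, 40.9 and 56.9 scaled RPM and Il1r1, the interleukin 1 receptor, from 10.8 and 14.8 to 35.5, 27.3 and 41.8 scaled RPM. Cytokine receptors called higher numbered 3 without saline 1 or saline 2, and those called lower 1 without saline 2 or LPS 1 and 3 on RPM as deposited.

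The 250 bases before the start were searched on both strands in the 7753 tested genes (60.5%) that matched 1 RefSeq promoter window in GRCm38.p6. An NF-kB type motif, spelled GGGA, any base, TT, any base and CC, lay in 1.12% of these promoters, in 2.30% of those of genes called higher, in 1.12% of those of genes called lower and in 0.971% of all 22862 windows. Among chemokine ligands 4 of 14 held it, and 3 of the 4 called higher in this set. Windows of 70 bases around the match are printed 5′ to 3′ on the strand of the gene, with the match in capitals, because these 4 chemokines match the same motif while 3 of them were called higher and 1 was not.
Cxcl1: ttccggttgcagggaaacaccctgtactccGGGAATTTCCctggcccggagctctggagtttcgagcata
Cxcl2: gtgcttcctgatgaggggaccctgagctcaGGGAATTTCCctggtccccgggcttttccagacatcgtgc
Cxcl10: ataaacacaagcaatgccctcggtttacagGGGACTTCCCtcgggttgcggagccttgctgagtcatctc
Cxcl3: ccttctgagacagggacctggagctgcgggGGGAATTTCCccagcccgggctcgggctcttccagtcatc
The windows are chr5:90891144-90891213 (plus strand) for Cxcl1, chr5:90903772-90903841 (plus) for Cxcl2, chr5:92348953-92349022 (minus) for Cxcl10 and chr5:90785998-90786067 (plus) for Cxcl3. Cxcl1, Cxcl2 and Cxcl3 share the match GGGAATTTCC, while Cxcl10 has GGGACTTCCC. Cxcl2 went from 0.833 and 0.377 to 32.6, 21.7 and 28.3 scaled RPM (log2 fold change 4.15, SE 0.26, adjusted p = 4.63e-05) and Cxcl10 from 24.5 and 35.5 to 437, 177 and 150.04 scaled RPM (log2 fold change 2.90, SE 0.57, adjusted p = 0.0108). Cxcl3 had 1 and 0 reads after saline and 5, 3 and 2 after LPS and was not called (adjusted p = 0.432). At so few reads a moderate change would not be detectable.

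Receptors and ligands of the tumour necrosis factor family divided. Of 22 tested, 4 rose and 3 fell (median -0.04, -0.28 as deposited). Tnfrsf12a, the receptor of TWEAK, went from 29.6 and 14.7 to 202, 89.1 and 124 scaled RPM (log2 fold change 2.59, SE 0.37), and the main TNF receptor Tnfrsf1a from 266 and 263 to 622, 453 and 494 scaled RPM (adjusted p = 0.0137). Tnfrsf11a (RANK) fell, from 33.1 and 39.2 to 20.04, 23.6 and 16.5 scaled RPM (adjusted p = 0.0323). Members of the tumour necrosis factor family called higher numbered 1 without saline 1 or saline 2 and 2 without LPS 3, and those called lower 0 without saline 1 and 1 without saline 2 or LPS 3. Of 17 interleukin ligands 2 rose, the cytokine Il6 (2.99) and the CSF1 receptor ligand Il34 (2.05), both outside the naming rule and named because they are the whole count. Il33, a nuclear alarmin of endothelium, fell, from 66.04 and 84.1 to 14.2, 27.4 and 37.8 scaled RPM (log2 fold change -1.56, SE 0.35, adjusted p = 0.0184). Interleukins called higher numbered 0 without saline 1 and 1 without saline 2, and those called lower 0 without saline 1 or saline 2 and 3 on RPM as deposited.

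Among secreted inhibitors and growth factors both directions occurred. Serpins, most of which block serine proteases, had 9 of 21 members called higher and 2 lower (median 0.72, 0.58 as deposited). The acute-phase serpins Serpina3f and Serpina3g went from 0.222 and 0.807 to 237, 126 and 102 scaled RPM and from 1.89 and 2.96 to 218, 135 and 119.9 scaled RPM, though members of this cluster have near-identical relatives and may share reads. Serpinb6b fell, from 48.2 and 53.1 to 17.01, 12.3 and 12.2 scaled RPM (log2 fold change -1.81, SE 0.23). Serpins called higher numbered 5 without saline 1 or saline 2, and those called lower 1 without saline 1, saline 2 or LPS 3. Complement genes rose in 3 of 17 cases, among them C3, from 1.94 and 3.82 to 23.3, 16.6 and 25.2 scaled RPM (log2 fold change 2.57, SE 0.29), and the C1 inhibitor Serping1, from 2.17 and 2.15 to 32.2, 17.1 and 10.8 scaled RPM (log2 fold change 2.60, SE 0.52). Complement genes called higher numbered 1 without saline 1 or saline 2, and those called lower 2 on RPM as deposited. Growth factors of the FGF, BMP, TGF-beta, Wnt and PDGF families fell in 7 of 35 cases and rose in 3 (median -0.29, -0.57 as deposited). Fgf1, a broad fibroblast growth factor, went from 165 and 159 to 10.4, 21.9 and 24.5 scaled RPM (log2 fold change -3.12, SE 0.35, adjusted p = 0.000975). Pdgfa rose, from 57.6 and 62.2 to 131, 129 and 150.4 scaled RPM (log2 fold change 1.17, SE 0.18). Growth factors called higher numbered 1 without saline 1 or saline 2, and those called lower 1 without saline 1 or saline 2, 4 without LPS 1 and 3 without LPS 3.

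Axon guidance cues, which also steer vessels, split by family member. Of 54 ephrin, semaphorin and plexin genes tested, 6 rose and 9 fell. Sema7a and Sema3f, secreted or membrane-anchored semaphorins, went from 61.5 and 84.4 to 411, 322 and 408 scaled RPM and from 153 and 158 to 677, 530.2 and 633 scaled RPM. The neuropilin receptor Nrp1 and the arterial ephrin Efnb2 went down, Nrp1 from 96.98 and 132 to 14.7, 43.9 and 32.4 scaled RPM (adjusted p = 0.0153) and Efnb2 from 119 and 175 to 25.9, 70.02 and 52.6 scaled RPM (adjusted p = 0.0329). Ntn4, a netrin of basement membranes, went from 96.3 and 114 to 11.7, 33.03 and 32.8 scaled RPM (log2 fold change -2.11, SE 0.40). For these 3 genes LPS 1 was the lowest library. Guidance genes called higher numbered 2 without saline 1 and 3 without saline 2, LPS 1 or LPS 3, and those called lower 3 without saline 1, 2 without saline 2, 4 without LPS 3 and 14 on RPM as deposited.

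Interferon-inducible GTPases were mostly highest in LPS 1 and lowest in LPS 3. Of these 10 GTPases, which attack pathogen vacuoles, 4 were called higher and 0 lower, with a median of 1.08 (0.79 as deposited). Gbp4 went from 151 and 188 to 1485, 721 and 500.4 scaled RPM (log2 fold change 2.26, SE 0.39, adjusted p = 0.00646) and Gbp2 from 104 and 124 to 1009, 415 and 275 scaled RPM (log2 fold change 2.09, SE 0.46). Gbp5 and Igtp had the same shape, at 80.3 and 105 scaled RPM after saline and 818, 335 and 206 after LPS for Gbp5 and 56.2 and 42.2 scaled RPM after saline and 307, 171 and 105 after LPS for Igtp. In all 4 LPS 1 was highest and LPS 3 lowest. For these 10 genes the median difference from saline was 1.96 in LPS 1, 0.94 in LPS 2 and 0.33 in LPS 3. Interferon GTPases called higher numbered 0 without saline 1 and 1 without saline 2.

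The 56 interferon-stimulated antiviral genes had 14 members called higher and 5 lower (median 0.62, 0.36 as deposited). Ifi205 and Slfn4, under 1 scaled RPM in saline, had log2 fold changes of 5.94 and 5.37. Zbp1, a sensor of Z-form nucleic acid, went from 67.8 and 66.2 to 557, 397 and 268 scaled RPM (log2 fold change 2.52, SE 0.28, adjusted p = 0.001). Members called lower included Ifit2, which binds foreign RNA (from 37.9 and 39.4 to 20.3, 20.7 and 10.5 scaled RPM), Ifi44 (from 572 and 644 to 320.5, 442 and 252 scaled RPM) and Ifi27 (from 179.9 and 153 to 87.1, 92.4 and 94.8 scaled RPM), so members of 1 list moved in opposite directions. LPS 3 was the lowest LPS library for 12 of the 14 called higher and for 46 of all 56. Antiviral genes called higher numbered 4 without saline 1 or saline 2, and those called lower 0 without saline 1 or saline 2, 3 without LPS 1 and 1 without LPS 3. Genes of antigen presentation by MHC molecules rose in 12 of 29 cases and 1 fell (median 0.71, 0.50 as deposited). The peptide transporter Tap1 went from 18.9 and 26.6 to 123.4, 74.05 and 60.6 scaled RPM (log2 fold change 1.82, SE 0.31), the class I activator Nlrc5 from 22.5 and 22.2 to 97.9, 66.2 and 39.04 scaled RPM and the invariant chain Cd74 from 68.9 and 147 to 582, 391 and 249 scaled RPM (log2 fold change 1.92, SE 0.39). H2-Q6, a class Ib molecule with close relatives, was even over the LPS mice, from 102 and 104 to 277, 311 and 277 scaled RPM (adjusted p = 0.00111). MHC genes called higher numbered 1 without saline 1, 4 without saline 2 and 7 without LPS 2.

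A motif of interferon-response type, GAAA, 2 bases of any kind and GAAA, was found in 2.64% of the 7753 promoters, in 5.36% of those of genes called higher, in 1.76% of those of genes called lower and in 3.11% of all 22862 windows. It lay in 5 of 6 interferon GTPases with a window, among them all 3 called higher, and in 11 of 33 antiviral genes. The windows of 4 of these GTPases follow, with the match in capitals, and TTTC, 2 bases and TTTC is the same motif read on the other strand. They are shown because 3 of the genes were called and 1 was not. Gbp7, whose window is not shown, also held the motif and was not called (log2 fold change 0.68, adjusted p = 0.25).
Gbp2: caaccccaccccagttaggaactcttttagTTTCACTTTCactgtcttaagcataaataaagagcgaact
Gbp5: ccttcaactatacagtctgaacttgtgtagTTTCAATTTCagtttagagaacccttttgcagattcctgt
Igtp: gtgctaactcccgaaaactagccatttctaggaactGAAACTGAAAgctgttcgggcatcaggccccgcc
Irgm1: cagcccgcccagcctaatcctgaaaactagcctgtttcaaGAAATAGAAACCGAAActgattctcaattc
They lie at chr3:142620574-142620643 (plus strand) for Gbp2, chr3:142496739-142496808 (plus) for Gbp5, chr11:58199486-58199555 (plus) for Igtp and chr11:48871421-48871490 (minus) for Irgm1. Irgm1 holds 2 overlapping matches and was not called, from 50.9 and 42.3 to 184, 94.7 and 60.8 scaled RPM (adjusted p = 0.108), with LPS 1 high and LPS 3 close to saline. A match of letters is a description of these windows. Mean GC content was 49.7% in the promoters of the 6 GTPases and 60.1% in the 7753 tested promoters. The part of base composition in the matches was not tested. Motifs of STAT type (TTCNNNGAA) were in 6.33% of all tested promoters, 7.85% of those called higher, 3.68% of those called lower and 7.23% of all windows. AP-1 type motifs (TGANTCA) were in 4.01%, 6.13%, 3.04% and 6.96%, in the same order. The E-box CACGTG was in 8.29%, 8.43%, 7.2% and 5.92%.

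Most proteasome subunits rose. Of 35 tested subunits and regulators of the complex that degrades ubiquitin-tagged proteins, 25 (71.4%) were called higher and 0 lower, the median was 0.84 (0.54 as deposited), and all 35 fold changes were above 0. For 34 of the 35 the groups did not overlap, against 26.7% of all genes upward. Their median level of 7.53 lay in the highest level bin, where 15.2% of all genes were called higher. The lid deubiquitinase Psmd14 (chromosome 2, 61711694 to 61800376, plus strand) went from 27.4 and 30.8 to 103, 76.7 and 73.8 scaled RPM (log2 fold change 1.49, SE 0.21, adjusted p = 0.0029), the base ATPase Psmc4 from 119.9 and 80.9 to 317, 254 and 265 scaled RPM (log2 fold change 1.48, SE 0.32), the lid subunit Psmd12 from 136 and 159 to 358, 357 and 444 scaled RPM (log2 fold change 1.38, SE 0.21) and the core subunit Psma6 from 268 and 310.4 to 868, 624 and 657 scaled RPM (log2 fold change 1.29, SE 0.21). As in all 878 genes called higher, the lowest LPS value of each of these 4 lay above the highest saline value. Proteasome subunits called higher numbered 0 without saline 1, 4 without saline 2, 16 without LPS 2 or LPS 3 and 10 on RPM as deposited. Of 4 interferon-inducible proteasome genes 1 rose, the activator Psme1, from 735 and 573 to 1630.5, 1320.3 and 1166 scaled RPM (adjusted p = 0.0221). Ubiquitin-conjugating enzymes (2 of 25 higher, 0 lower) and USP deubiquitinases (1 of 42 higher, 0 lower) were near the 6.85% of all genes or below it. The median level of the conjugating enzymes (6.70) lay in the highest bin, so their share of 8.0% was below the 15.2% there. That of the deubiquitinases (5.08) lay in the next lower bin, where 7.80% were called higher.

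Messages for protein synthesis in the cytosol were called higher often and lower in no case. The median levels of charging enzymes (6.30), ribosomal proteins (8.84) and initiation and elongation factors (6.92) lay in the highest level bin. There 15.2% of all genes were called higher, against 19.1% of initiation and elongation factors. Biogenesis factors (5.51) lay in the fourth bin, where the share was 7.80%. Charging enzymes that load amino acids on transfer RNA had 11 of 20 members called higher, 0 lower and a median of 0.81 (0.52 as deposited). Wars, the tryptophan enzyme, which interferon induces, went from 106 and 108 to 1067, 409 and 265 scaled RPM (log2 fold change 2.18, SE 0.48, adjusted p = 0.018), and Vars from 11.3 and 11.6 to 43.4, 29.8 and 30.7 scaled RPM (log2 fold change 1.50, SE 0.25). Aars and Hars had 1.18 and 1.18 on the log2 scale. Cytosolic ribosomal proteins were called higher in 12 of 20 tested cases and lower in 0 (median 0.94, 0.73 as deposited), with 22 such genes on the panel. Rps9 went from 1692 and 1374 to 4959, 3262 and 4074 scaled RPM (log2 fold change 1.41, SE 0.26, adjusted p = 0.00917) and Rpl4 from 811 and 618 to 3340.2, 1544 and 1776 scaled RPM (log2 fold change 1.56, SE 0.33), and processed copies of these genes may share their reads. Initiation and elongation factors rose in 9 of 47 cases and fell in 0 (median 0.60, 0.30 as deposited), led by Eif5, from 283 and 212 to 694, 528 and 505 scaled RPM (adjusted p = 0.00889). Ribosome biogenesis factors rose in 16 of 78 and fell in 0 (median 0.61, 0.32 as deposited), with 74 of the 78 above 0. Mrto4, which works in assembly of the large subunit, went from 38.9 and 31.1 to 156, 82.03 and 93.9 scaled RPM (log2 fold change 1.59, SE 0.31), and Rrp12, an export factor, from 4.33 and 3.61 to 33.1, 8.67 and 13.3 scaled RPM (log2 fold change 1.76, SE 0.46).

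The synthesis classes differed between the LPS mice. LPS 1 was the highest LPS library for all 16 biogenesis factors called higher and for 71 of all 78, where the share over all tested genes was 40.3%. The median difference of the 78 from saline was 1.13 in LPS 1, 0.29 in LPS 2 and 0.45 in LPS 3. For ribosomal proteins these medians were 1.42, 0.71 and 0.82. Proteasome subunits were closer together, at 0.99, 0.74 and 0.74. Without LPS 1 the number of biogenesis factors called higher was 15 and that of ribosomal proteins 9. Charging enzymes called higher numbered 1 without saline 1, 0 without saline 2, 5 without LPS 3 and 7 on RPM as deposited. Ribosomal proteins called higher numbered 0 without saline 1, 1 without saline 2, 6 without LPS 3 and 6 on RPM as deposited. Initiation and elongation factors called higher numbered 0 without saline 1 or saline 2, 3 without LPS 3 and 3 on RPM as deposited, and those called lower 3 on RPM as deposited. Biogenesis factors called higher numbered 0 without saline 1 or saline 2, 4 without LPS 3 and 8 on RPM as deposited, and those called lower 2 on RPM as deposited.

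**Figure D5:**
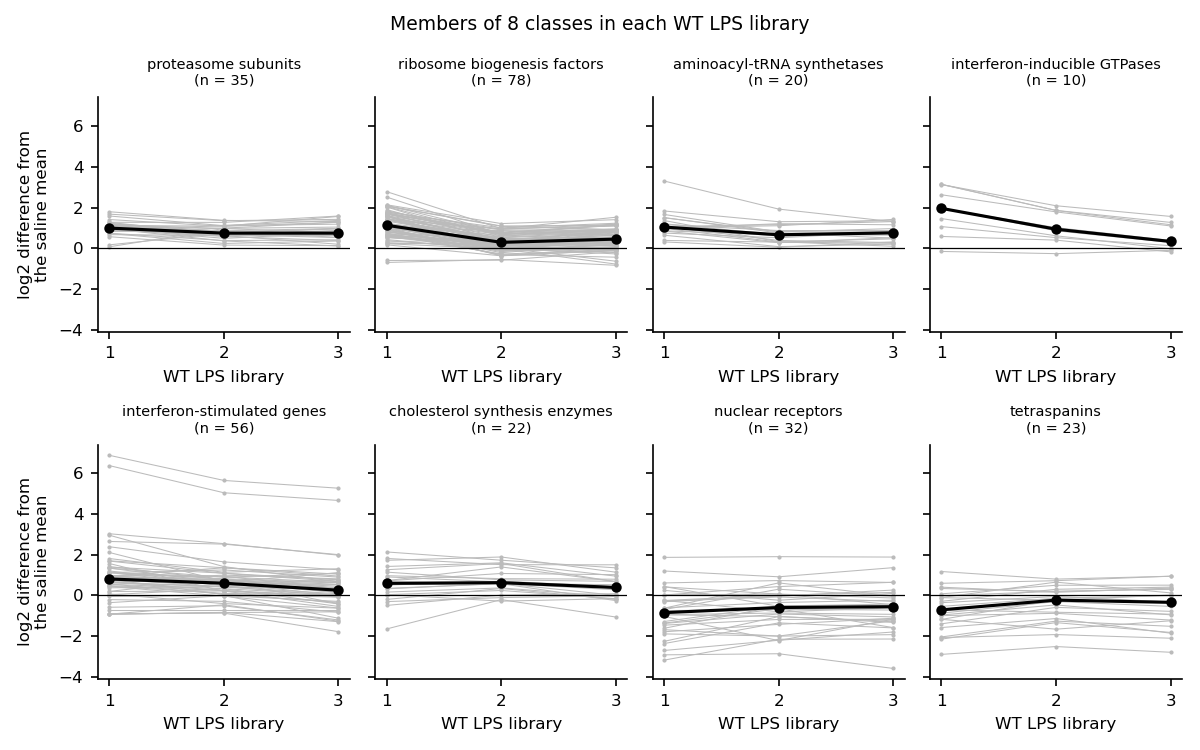
Each grey line joins the log2 differences of 1 gene from the saline mean in the 3 LPS libraries (y axis), for all tested members of 8 classes, and black circles are the class medians. Biogenesis factors are highest in LPS 1, interferon GTPases run from 1.96 in LPS 1 to 0.33 in LPS 3, and proteasome subunits stay between 0.74 and 0.99.

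Few genes of other expression and energy machinery were called. Mitochondrial ribosomal proteins were called higher in 3 of 69 cases and oxidative phosphorylation subunits in 1 of 69, with 0 lower in each, or 5 and 6 lower on RPM as deposited (medians 0.25 and -0.05, or -0.04 and -0.34 as deposited). The exception in oxidative phosphorylation was Ndufc2, a complex I subunit, from 39.7 and 48.2 to 89.9, 120.2 and 110.5 scaled RPM (log2 fold change 1.26, SE 0.20, adjusted p = 0.00511). Splicing factors had 6 of 94 higher (6.38%) and 3 lower (3.19%), with a median of 0.30 (0.00 as deposited). Srsf2 went from 295 and 338 to 1315, 964 and 867 scaled RPM (log2 fold change 1.71, SE 0.24), while Hnrnph3 fell, from 246 and 199.96 to 57.5, 108 and 87.2 scaled RPM (adjusted p = 0.00963). Splicing factors called higher numbered 0 without saline 1 and 1 without saline 2, and those called lower 0 without saline 1 or saline 2 and 1 without LPS 2 or LPS 3. RNA polymerase subunits had 1 of 24 called higher, the polymerase I subunit Polr1a (1.46). Genes of DNA replication and mitosis had 2 of 38 higher, Tyms and Rrm2, and 1 lower. Tricarboxylic acid cycle enzymes had 1 of 17 in each direction, with Idh3a at 0.64 and Idh2 at -1.02, and vacuolar ATPase subunits 1 of 21 higher. Without saline 1 the counts in both directions were 0 for RNA polymerase, vacuolar ATPase and oxidative phosphorylation subunits, for tricarboxylic acid cycle, mitochondrial ribosomal and ubiquitin-conjugating genes, and for phosphodiesterases and glycolysis enzymes. As a negative background, 13 of 1320 olfactory, vomeronasal and taste receptors on the panel passed the read filter, and 1 of them was called lower and 0 higher.

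Of 76 chaperones and co-chaperones, 9 rose and 3 fell (median 0.19, and -0.08 as deposited). The endoplasmic reticulum chaperone Hspa5 went from 95.3 and 113 to 201, 274 and 197 scaled RPM (log2 fold change 1.08, SE 0.23), and the cytosolic chaperonin subunits Cct5 and Cct3 from 238 and 249 to 472, 392 and 486 scaled RPM and from 73.2 and 84.2 to 203, 118 and 125 scaled RPM. The stress-induced Hspa1b and Hsph1 went from 118 and 14.2 to 5.05, 4.997 and 7.12 scaled RPM and from 527 and 153 to 89.6, 81.7 and 93.1 scaled RPM. For both of these saline 1 was several times saline 2, as for Cryab above. Chaperones called higher numbered 0 without saline 1 or saline 2, 1 without LPS 3 and 2 on RPM as deposited, and those called lower 1 without saline 1, LPS 1, LPS 2 or LPS 3, 6 without saline 2 and 8 on RPM as deposited. Among 44 genes of protein folding in the endoplasmic reticulum 4 rose and 1 fell. Manf, a secreted stress protein of this compartment, went from 64.3 and 69.8 to 155, 179 and 141 scaled RPM (log2 fold change 1.22, SE 0.20), and the disulphide isomerase Pdia5 fell, from 151 and 209 to 15.7, 38.5 and 49.1 scaled RPM (log2 fold change -2.47, SE 0.46). Folding genes called higher numbered 0 without saline 1, 1 without saline 2 and 9 without LPS 1, and those called lower 0 without saline 1 or saline 2 and 3 on RPM as deposited.

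Among the classes of 10 or more tested members nuclear receptors had the largest share of decreases. Of 32 tested, 13 (40.6%) were called lower and 2 higher, beside 8.79% and 6.85% of all genes, and the median was -0.73 (-0.95 as deposited). These are transcription factors that bind hormones and lipids. The clock repressor Nr1d1 (REV-ERB alpha, chromosome 11, 98767932 to 98775333, minus strand) went from 65.4 and 107 to 10.2, 10.6 and 6.04 scaled RPM (log2 fold change -3.12, SE 0.33, adjusted p = 0.000677), and its relative Nr1d2 from 88.5 and 133 to 30.8, 39.97 and 49.5 scaled RPM (log2 fold change -1.44, SE 0.25). The progesterone receptor Pgr went from 22.8 and 25.5 to 1.77, 4.65 and 4.69 scaled RPM (log2 fold change -2.49, SE 0.34), and the thyroid hormone receptor Thra from 478 and 499.6 to 94.2, 191 and 161 scaled RPM (log2 fold change -1.77, SE 0.30). The steroid receptors Esr1, Nr3c1 and Nr3c2, for oestrogen, glucocorticoid and mineralocorticoid, were called lower at -1.87, -1.11 and -1.10, and were named after their values were seen. The exceptions were Nr2f2, described above, and the retinoic acid receptor Rara, from 192 and 185 to 436, 357 and 488 scaled RPM (log2 fold change 1.16, SE 0.21, adjusted p = 0.00779). Nr2f1, the close relative of Nr2f2, moved the other way at -1.52. Nuclear receptors called higher numbered 1 without saline 1 or saline 2, and those called lower 4 without saline 1 and 5 without saline 2.

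The bHLH, bZIP, KLF and IRF factors had 18 of 105 called higher and 7 lower, with a median of 0.10 that was -0.15 as deposited. The AP-1 factor Fosl1 went from 0.889 and 0.108 to 89.4, 24.2 and 30.6 scaled RPM (log2 fold change 4.84, SE 0.52), Myc, a driver of cell growth, from 8.50 and 6.24 to 216, 48.6 and 87.1 scaled RPM (log2 fold change 3.57, SE 0.51), and Cebpb, a factor of the acute phase, from 88.3 and 74.9 to 827, 531 and 939.9 scaled RPM (log2 fold change 3.18, SE 0.28, adjusted p = 0.000291). Klf4, which keeps endothelium quiescent, fell, from 183 and 159 to 112, 58.5 and 84.6 scaled RPM (adjusted p = 0.0295), as did Klf12, from 42.2 and 57.95 to 5.14, 13.8 and 9.20 scaled RPM (log2 fold change -2.37, SE 0.36). The bHLH, bZIP, KLF and IRF factors called higher numbered 4 without saline 1 or saline 2, and those called lower 3 without saline 1 or LPS 3, 2 without saline 2, 4 without LPS 2 and 15 on RPM as deposited. Homeobox factors had 9 of 41 called lower and 2 higher (median -0.30, -0.49 as deposited). Hoxb9, Hoxb8 and Hoxb6, which mark position along the body axis, went from 60.7 and 46.1 to 15.6, 14.6 and 14.2 scaled RPM, from 57.8 and 53.4 to 17.3, 22.1 and 21.1 scaled RPM and from 136 and 137 to 47.2, 72.7 and 76.5 scaled RPM. Lhx6 rose, from 16.8 and 17.1 to 69.2, 149.5 and 83.6 scaled RPM (log2 fold change 2.42, SE 0.30). Homeobox factors called higher numbered 1 without saline 1, saline 2, LPS 2 or LPS 3 and 1 on RPM as deposited, and those called lower 2 without saline 1 or saline 2 and 5 without LPS 1 or LPS 3.

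Sox, Gata and ETS factors, which include regulators of endothelial identity, had 8 of 33 called lower and 4 higher (median -0.04, -0.33 as deposited). Erg, which maintains endothelial identity, went from 433 and 415 to 203, 265 and 262 scaled RPM (adjusted p = 0.0291), and its call was lost in each fit that left out a WT library. Ets2 fell, from 421 and 427 to 199, 203 and 150.04 scaled RPM (log2 fold change -1.21, SE 0.20), and Sox9 rose, from 4.28 and 6.35 to 29.6, 39.7 and 39.9 scaled RPM (log2 fold change 2.57, SE 0.24, adjusted p = 0.000416). Sox, Gata and ETS factors called higher numbered 1 without saline 1 or saline 2, and those called lower 0 without saline 1, 2 without saline 2 or LPS 2 and 3 without LPS 1 or LPS 3. Zinc finger factors, the largest class of regulators, had 7 of 324 higher (2.16%) and 25 lower (7.72%), with a median of -0.18 (-0.45 as deposited). Zbtb16 (PLZF) stood apart, from 2.06 and 0.646 to 175, 179.8 and 135 scaled RPM (log2 fold change 6.18, SE 0.36, adjusted p = 3.04e-05). Zinc finger factors called higher numbered 1 without saline 1, 2 without saline 2 or LPS 3 and 4 on RPM as deposited, and those called lower 1 without saline 1 or saline 2, 16 without LPS 1, 10 without LPS 3 and 57 on RPM as deposited. Histone genes had 6 of 25 lower and 0 higher (median -0.38, -0.68 as deposited), with the linker histone Hist1h1c from 525 and 765 to 411, 295 and 289 scaled RPM (adjusted p = 0.0327). Histones called lower numbered 0 without saline 1, saline 2 or LPS 3, 2 without LPS 2 and 10 on RPM as deposited. Histone-modifying enzymes moved less often, 1 of 76 higher and 3 lower, with the deacetylase Hdac11 at -2.23.

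At the cell surface tetraspanins, which organise membrane microdomains, had 7 of 23 called lower and 2 higher (median -0.57, -0.85 as deposited). Tspan13 went from 34.7 and 30.9 to 3.54, 4.93 and 3.88 scaled RPM (log2 fold change -2.73, SE 0.26, adjusted p = 0.000413) and Tspan2 from 19.3 and 25.6 to 4.55, 5.14 and 4.42 scaled RPM (log2 fold change -2.03, SE 0.26). Cd9 and Cd63 rose by 0.76 and 0.98 on the log2 scale, and neither call held on RPM as deposited or without saline 1, saline 2 or LPS 3. Tetraspanins called higher numbered 0 without saline 1, saline 2 or LPS 3, 1 without LPS 2 and 0 on RPM as deposited, and those called lower 2 without saline 1, 4 without saline 2 and 11 on RPM as deposited. Integrins, the receptors of the matrix, had 3 of 22 in each direction. Itgb3, the beta chain of the vitronectin receptor, went from 1.67 and 1.51 to 71.2, 54.5 and 75.2 scaled RPM (log2 fold change 4.70, SE 0.29, adjusted p = 4.63e-05), and Itga3, a laminin receptor chain, from 43.9 and 36.4 to 202, 170.3 and 182 scaled RPM (log2 fold change 2.18, SE 0.25). Itgb2, better known from leukocytes, went from 2.999 and 2.42 to 13.9, 10.8 and 13.7 scaled RPM (log2 fold change 1.89, SE 0.25), and the part of leukocyte messages in it was not tested. The sums of 12 macrophage and monocyte markers were 10.0 and 23.8 RPM as deposited after saline and 11.1, 6.44 and 8.09 after LPS, while those of neutrophil and of T and natural killer cell markers, given further on, were higher in every LPS library than in either saline library. The sums of 6 platelet and megakaryocyte markers were 5.96 and 5.04 RPM as deposited after saline and 30.1, 16.4 and 19.5 after LPS. Of the 3 tested, 1 was called higher, Pf4, and the median log2 fold change was -0.19. The part of platelet messages in Itgb3 and the other integrins was not tested. Itga1 and Itgb5 fell, with log2 fold changes of -0.92 and -1.55. Integrins called lower numbered 1 without saline 1 or LPS 3 and 5 on RPM as deposited.

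Claudins, which seal or open tight junctions, had 3 of 12 lower and 0 higher. They were Cldn19, Cldn10 and Cldn8, which are known from tubules, and not the endothelial Cldn5. Claudins called higher numbered 1 without LPS 2, and those called lower 0 without saline 1, 1 without saline 2 and 5 on RPM as deposited. Cldn10 of the loop of Henle went from 18.3 and 13.3 to 2.36, 8.12 and 6.31 scaled RPM (adjusted p = 0.0423), beside 5 of 7 loop of Henle markers and 4 of 18 proximal tubule markers called lower. Regulators of G protein signalling, which shorten receptor signals, had 4 of 13 lower and 0 higher. Rgs2 went from 51.04 and 42.6 to 15.7, 11.6 and 11.4 scaled RPM (log2 fold change -1.79, SE 0.22, adjusted p = 0.00139) and Rgs3 from 128 and 124 to 55.2, 68.3 and 55.1 scaled RPM (log2 fold change -1.08, SE 0.20). These regulators called lower numbered 1 without saline 1 or saline 2. Among orphan and adhesion G protein-coupled receptors 4 of 34 rose and 1 fell, with Adgrg1 from 34.9 and 41.6 to 138, 120.3 and 136 scaled RPM (log2 fold change 1.76, SE 0.25). These receptors called higher numbered 2 without saline 1 and 1 without saline 2, and those called lower 0 without saline 1 or saline 2 and 6 on RPM as deposited. Phosphodiesterases had 2 of 20 in each direction, and Pde4b, which degrades cyclic AMP, went from 64.6 and 74.5 to 196, 131 and 243 scaled RPM (adjusted p = 0.00907).

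Transporters and channels stayed near the share of all genes. Solute carriers had 17 of 264 higher (6.44%) and 23 lower (8.71%), with a median of -0.14 (-0.38 as deposited). Slc6a6, the taurine transporter, went from 336 and 362 to 48.005, 100.97 and 97.7 scaled RPM (log2 fold change -2.15, SE 0.35, adjusted p = 0.00511), and the phosphate transporter Slc34a1 of the proximal tubule from 65.7 and 50.6 to 19.1, 17.3 and 27.7 scaled RPM (log2 fold change -1.42, SE 0.28). Slco2a1, which takes up prostaglandins, rose, from 22.9 and 29.3 to 54.7, 76.8 and 109 scaled RPM (log2 fold change 1.54, SE 0.33). Solute carriers called higher numbered 1 without saline 1, 2 without saline 2, 6 without LPS 3 and 11 on RPM as deposited, and those called lower 3 without saline 1, 12 without saline 2, 15 without LPS 2 and 53 on RPM as deposited. ABC transporters had 3 of 33 higher and 4 lower. The cholesterol exporters Abca1 and Abcg1 went from 12.6 and 13.1 to 6.91, 3.89 and 6.67 scaled RPM and from 50.1 and 60.4 to 32.9, 26.4 and 32.4 scaled RPM, and the xenobiotic pump Abcg2 from 60.9 and 60.4 to 84.3, 152 and 169.5 scaled RPM. ABC transporters called higher numbered 0 without saline 1 or saline 2, 1 without LPS 2 or LPS 3 and 1 on RPM as deposited, and those called lower 0 without saline 1, saline 2, LPS 2 or LPS 3 and 2 without LPS 1. Ion channels had 4 of 77 higher and 6 lower. Ion channels called higher numbered 1 without saline 1 or saline 2, and those called lower 2 without saline 1 or LPS 3, 3 without saline 2 and 23 on RPM as deposited. The mechanosensitive channel Piezo2 went from 19.5 and 30.5 to 2.70, 1.80 and 4.42 scaled RPM (log2 fold change -2.73, SE 0.34), and the calcium channel Trpv4 from 5.67 and 5.76 to 29.8, 21.8 and 31.5 scaled RPM (log2 fold change 2.08, SE 0.26, adjusted p = 0.00149).

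Of 27 collagens 3 rose and 5 fell (median -0.29, -0.48 as deposited). The basement membrane chains Col4a1 and Col4a2, encoded side by side, went from 288 and 379.7 to 1127, 1023 and 1417 scaled RPM and from 151 and 169 to 551, 442 and 498 scaled RPM. Col13a1, a transmembrane collagen, went from 11.9 and 19.8 to 85.2, 105 and 179.5 scaled RPM (log2 fold change 2.85, SE 0.33, adjusted p = 0.00109). Those called lower were Col12a1, Col6a3, Col4a4, Col6a2 and Col4a5, from -1.59 to -0.76 on the log2 scale, so chains of type IV collagen moved apart. Collagens called lower numbered 1 without saline 1 or saline 2, 2 without LPS 1 or LPS 2, 3 without LPS 3 and 11 on RPM as deposited. ADAM and ADAMTS proteases had 5 of 24 higher and 1 lower. Adamtsl4, a matrix protein related to this family, went from 0.5 and 0.753 to 44.97, 48.7 and 68.5 scaled RPM (log2 fold change 5.06, SE 0.47), and the aggrecan-cleaving Adamts4 from 6.17 and 6.995 to 98.7, 51.6 and 101.3 scaled RPM (log2 fold change 3.42, SE 0.33). These proteases called higher numbered 2 without saline 1 and 3 without saline 2, LPS 1 or LPS 3, and those called lower 0 without saline 1, saline 2, LPS 2 or LPS 3, 2 without LPS 1 and 4 on RPM as deposited. Among matrix metalloproteinases and their inhibitors 5 of 16 rose and 3 fell. Timp3 rose, from 289.7 and 291 to 808, 543 and 475 scaled RPM (adjusted p = 0.0242), and Timp2 fell, from 31.4 and 28.8 to 9.69, 8.74 and 9.56 scaled RPM (log2 fold change -1.59, SE 0.24, adjusted p = 0.0036). Metalloproteinases and inhibitors called higher numbered 1 without saline 1 or saline 2, and those called lower 1 without saline 1.

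Actin and myosin genes had 3 of 60 higher (5.0%) and 6 lower (10.0%), near the shares of all genes, and a median of 0.05 (-0.19 as deposited), with the crosslinker Actn1 from 13.1 and 8.66 to 182, 59.96 and 56.9 scaled RPM (log2 fold change 2.89, SE 0.46) and the talin Tln2 from 62.9 and 23.2 to 3.37, 5.27 and 3.34 scaled RPM (log2 fold change -3.00, SE 0.40). Rab GTPases had 4 of 44 in each direction, and Rab27a, which docks secretory granules, went from 47.3 and 47.8 to 78.6, 169 and 167 scaled RPM (adjusted p = 0.0178). Kinases of the MAP kinase cascade had 3 of 43 higher and 4 lower. Map3k6 and Map3k8, which act early in the cascade, went from 11.8 and 9.95 to 282, 163 and 174 scaled RPM and from 18.4 and 25.3 to 142, 64.1 and 95.4 scaled RPM, while Mapk3 (ERK1) fell, from 540.4 and 565 to 149, 334 and 267 scaled RPM (adjusted p = 0.0323). Kinases of the cascade called higher numbered 1 without saline 1, and those called lower 0 without saline 1 or saline 2, 2 without LPS 3 and 8 on RPM as deposited. Dual-specificity phosphatases, which switch these kinases off, had 1 of 21 higher and 3 lower. These phosphatases called higher numbered 0 without saline 1 or saline 2, and those called lower 0 without saline 1 and 7 on RPM as deposited. Actin and myosin genes called higher numbered 1 without saline 1 or saline 2, and those called lower 1 without saline 1 or saline 2, 3 without LPS 2 or LPS 3 and 11 on RPM as deposited. Rab proteins called higher numbered 0 without saline 1, 1 without saline 2 and 2 without LPS 2, and those called lower 0 without saline 1 or saline 2, 2 without LPS 1, 1 without LPS 3 and 8 on RPM as deposited.

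Enzymes of glutathione and glucuronide conjugation, which detoxify reactive compounds, had 9 of 30 lower and 3 higher (median -0.33, -0.53 as deposited). Gstm1 and Gstm2, relatives that may share reads, went from 591 and 464 to 73.4, 100.1 and 93.2 scaled RPM and from 184 and 227 to 21.6, 41.7 and 46.98 scaled RPM. Gclc, the rate-limiting enzyme of glutathione synthesis, rose, from 76.2 and 71.998 to 246, 109 and 191 scaled RPM (adjusted p = 0.029), as did Gsto1, from 19.6 and 11.6 to 107, 37.8 and 42.7 scaled RPM. Conjugating enzymes called higher numbered 0 without saline 1 or saline 2 and 1 without LPS 1 or LPS 3, and those called lower 2 without saline 1 and 5 without saline 2. Aldehyde dehydrogenases, aldo-keto reductases and carboxylesterases had 5 of 34 lower and 0 higher, with the retinoic acid-forming Aldh1a3 from 26.7 and 35.5 to 9.94, 8.47 and 7.48 scaled RPM (log2 fold change -1.73, SE 0.27, adjusted p = 0.00455). Aldehyde and ester enzymes called lower numbered 2 without saline 1 or LPS 3, 1 without saline 2, 3 without LPS 1 or LPS 2 and 9 on RPM as deposited. Cytochrome P450 enzymes had 3 of 33 lower and 1 higher, Cyp26b1, which degrades retinoic acid, from 153 and 51.8 to 189.7, 547 and 548 scaled RPM (adjusted p = 0.0281). For Cyp26b1 LPS 1 lay close to saline 1. Cytochrome P450 enzymes called higher numbered 0 without saline 2, LPS 2 or LPS 3, and those called lower 0 without saline 1 or saline 2, 1 without LPS 1 or LPS 2 and 8 on RPM as deposited. In scaled RPM the summed proximal tubule markers were 2272 and 2304 after saline and 1339, 1466 and 2222 after LPS. LPS 3 was thus close to saline. Tubule cells express many conjugating enzymes, and their part in these counts was not tested.

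Amino acid and one-carbon enzymes had 6 of 24 higher and 1 lower (median 0.37, 0.08 as deposited). Mthfd2, the mitochondrial folate enzyme (chromosome 6, 83305691 to 83325908, minus strand), went from 10.2 and 9.95 to 148, 74.9 and 68.3 scaled RPM (log2 fold change 3.06, SE 0.32, adjusted p = 0.000665), and its partner Mthfd1l from 4.50 and 4.25 to 38.2, 15.8 and 17.04 scaled RPM (log2 fold change 2.08, SE 0.35). Arg2, the mitochondrial arginase, went from 5.61 and 0.861 to 36.97, 9.30 and 16.8 scaled RPM (adjusted p = 0.0257). Amino acid and one-carbon enzymes called higher numbered 2 without saline 1, 1 without saline 2, 3 without LPS 1 or LPS 3 and 3 on RPM as deposited, and those called lower 0 without saline 1, saline 2, LPS 2 or LPS 3 and 2 on RPM as deposited. Cholesterol synthesis and uptake genes had 6 of 22 higher and 0 lower (median 0.57, 0.29 as deposited). Fdft1, which commits precursors to sterols, went from 19.995 and 23.1 to 73.6, 82.6 and 48.8 scaled RPM (log2 fold change 1.59, SE 0.27). LPS 3 was the lowest LPS library in 5 of these 6. Cholesterol genes called higher numbered 0 without saline 1, 1 without saline 2, 3 without LPS 2 or LPS 3 and 3 on RPM as deposited, and those called lower 1 without LPS 2 and 1 on RPM as deposited. Fatty acid oxidation genes had 5 of 25 higher and 1 lower (median -0.01, -0.30 as deposited). Pdk4, which holds back glucose oxidation, went from 15.996 and 10.6 to 110.2, 41.1 and 90.9 scaled RPM (log2 fold change 2.43, SE 0.38), and Cpt1a, the gate of fatty acid entry into mitochondria, from 37.99 and 27.4 to 55.9, 57.2 and 61.7 scaled RPM (adjusted p = 0.0303). Acaa2 fell, from 58.04 and 60.4 to 18.1, 23.9 and 22.002 scaled RPM (log2 fold change -1.44, SE 0.30). Fatty acid oxidation genes called higher numbered 1 without saline 1, 0 without saline 2, 2 without LPS 3 and 3 on RPM as deposited, and those called lower 0 without saline 1 or saline 2 and 6 on RPM as deposited. Glycolysis genes had 2 of 16 higher and 1 lower. Pfkfb3, the activator of endothelial glycolysis, went from 72.3 and 113 to 569, 224 and 252 scaled RPM (log2 fold change 1.80, SE 0.38, adjusted p = 0.0151), and the muscle-type phosphofructokinase Pfkm fell, from 25.5 and 24.9 to 3.87, 6.94 and 7.75 scaled RPM (log2 fold change -1.91, SE 0.34).

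Cathepsins and lysosomal hydrolases had 7 of 41 lower and 1 higher (median -0.41, -0.69 as deposited). Hexa, a subunit of beta-hexosaminidase, went from 24.8 and 26.6 to 4.55, 6.73 and 5.23 scaled RPM (log2 fold change -2.05, SE 0.25, adjusted p = 0.0014), and Gaa, the acid alpha-glucosidase, from 16.996 and 15.4 to 5.47, 5.90 and 5.86 scaled RPM (log2 fold change -1.35, SE 0.25). Autophagy genes had 4 of 34 lower and 0 higher (median 0.03, -0.25 as deposited). Autophagy genes called lower numbered 1 without saline 1 or LPS 3, 0 without saline 2 and 7 on RPM as deposited. Sialyl-, fucosyl- and O-glycosyl transferases, which build the sugars of surface glycoproteins, had 10 of 53 lower and 2 higher (median -0.22, -0.42 as deposited). Fut9 went from 53.7 and 35.2 to 1.94, 4.997 and 5.59 scaled RPM (log2 fold change -3.19, SE 0.49) and St6galnac3 from 24.7 and 25.8 to 2.95, 4.23 and 6.67 scaled RPM (log2 fold change -2.28, SE 0.31, adjusted p = 0.00245). Enzymes of sulphation and of heparan and chondroitin sulphate had 3 of 36 lower (8.33%) and 2 higher, near the shares of all genes, with Csgalnact1, which starts chondroitin chains, from 49.3 and 46.7 to 14.5, 12.98 and 10.1 scaled RPM (log2 fold change -1.87, SE 0.29). Sulphation enzymes called higher numbered 1 without saline 1, saline 2 or LPS 3 and 1 on RPM as deposited, and those called lower 0 without saline 1, 1 without saline 2 or LPS 1 and 10 on RPM as deposited. Lysosomal genes called higher numbered 0 without saline 1, saline 2 or LPS 3 and 0 on RPM as deposited, and those called lower 1 without saline 1 or saline 2 and 16 on RPM as deposited. Transferases called higher numbered 0 without saline 1 or saline 2, 1 without LPS 2 or LPS 3 and 1 on RPM as deposited, and those called lower 3 without saline 1, 4 without saline 2, 6 without LPS 3 and 17 on RPM as deposited.

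Genes without an established name were called lower more often than all tested genes, though near the share of genes at low levels. Their median level of 1.37 on the log2 scale lay in the lowest level bin. In that bin 10.6% of all genes were called lower, and in the next 14.5%. Of 885 tested genes with predicted or clone-type symbols, 37 (4.18%) were called higher and 131 (14.8%) lower, with a median of -0.22 (-0.43 as deposited). By annotated type, 22 of 499 long non-coding RNAs (4.41%) were higher and 94 (18.8%) lower, beside 843 and 1014 of 12132 protein-coding genes (6.95% and 8.36%). Within the lowest level bin 18.6% of long non-coding RNAs and 9.43% of protein-coding genes were lower, and in the next bin 19.8% and 14.3%. AA467197, a short transcript named above, and 1110008P14Rik, from 83.6 and 49.1 to 327, 284 and 258 scaled RPM (log2 fold change 2.15, SE 0.24, adjusted p = 0.00104), rose, while Gm19705 fell, from 34.2 and 33.6 to 8.93, 4.37 and 5.32 scaled RPM (log2 fold change -2.33, SE 0.28). Unnamed genes called higher numbered 4 without saline 1, 9 without saline 2 and 23 without LPS 3, and those called lower 24 without saline 1, 45 without saline 2, 74 without LPS 1, 87 without LPS 2, 62 without LPS 3 and 231 on RPM as deposited.

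Markers of other cell types were read beside these results. In the pan-endothelial list 2 of 21 genes rose, Ramp2 and Nos3, and 6 fell, Tek, Tie1, Erg, Plvap, Cd34 and Sox17, while Pecam1 was at 838 and 1112 scaled RPM after saline and 602, 1031 and 1184 after LPS and Kdr at 267 and 418 scaled RPM after saline and 353, 441 and 458 after LPS, and neither was called. Fewer cells of a type and less message per cell cannot be told apart in such bulk samples. Of the markers of the proximal tubule, loop of Henle, distal tubule and collecting duct, 0 rose and 4 of 18, 5 of 7, 1 of 6 and 3 of 10 fell. Havcr1 (KIM-1), a sign of tubule injury that was chosen after its values were seen, went from 0.0555 and 0.861 to 30.6, 6.59 and 24.1 scaled RPM (log2 fold change 3.70, SE 0.63, adjusted p = 0.00611). Neutrophil markers summed to 4.91 and 7.93 RPM as deposited after saline and 10.6, 8.14 and 14.0 after LPS, with S100a8 and S100a9 called higher. The sums for T and natural killer cells were 1.47 and 2.49 after saline and 3.18, 4.22 and 3.91 after LPS, and those for B cells were at most 2.02. The podocyte gene Nphs1 was at 0.0555 and 0.108 scaled RPM after saline and 0, 0 and 0 after LPS and the hepatocyte gene Alb at 0 and 0 scaled RPM after saline and 0.0842, 0 and 0.271 after LPS, while the hepatocyte list summed to 3.86 and 1.28 RPM as deposited after saline and 108, 7.77 and 31.8 after LPS, where most of it was Fgb.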

How the data were processed

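The deposited table holds RPM values: per the file headers each column is 1 mouse, and as the values show the authors related amplicon reads to the panel total of a library and scaled no further. Within 0.1 read, 100% of the values were whole multiples of 1 read, so reads were recovered. Per the submitters' processing notes mm10 and the Transcriptome Analysis Console were used, with no role given, with aligner, counter and strand setting not given in the sources used here. A total of 27 symbols turned into dates were restored from the amplicon names. Genes with near-identical relatives or overlapping neighbours may share reads, and Rpl10a, the tagged protein, was not analysed. Amplicons carry no molecular identifiers, so floors cover counting error only.

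FilterByExpr (minimum count 10, minimum total 15) kept 12820 genes. It ran over all 8 libraries, and its smallest group, SOCS3iKEO saline, holds 1 library. Enough reads in 1 library of any group could therefore keep a gene. The shares over all tested genes and the lowest level bin include genes with few or no reads in the WT libraries. Limma 3.58.1 with a trended prior was run on log2(TMM-scaled RPM + 1) over all 8 libraries with a mean per group, after checks on simulated data, in R 4.3.3. EdgeR 4.0.16 and DESeq2 1.42.0 were run on the recovered reads, and edgeR called 923 genes higher (7.2%) and 1142 lower (8.91%). The Benjamini-Hochberg threshold was 0.05. The p-values set each difference against a spread pooled over the replicates of all groups and drawn toward a trend with level. That spread is not the one of the 5 WT mice alone. Gene positions come from GENCODE M21 (mm10), and promoter windows are those of RefSeq in GRCm38.p6.

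The comparison, the gene classes and the marker lists were chosen with earlier results of these data known. Genes were named by rule: 2 per direction in each of 5 level bins, up to 4 called members per direction in each class described with a mean log2 level of 3 or more (up to 2 with the smallest p where none was called), the 6 with the largest and the 6 with the smallest SD over LPS libraries, the 6 highest with no saline read and the 6 highest in saline with at most 3 reads in each LPS library, and the 5 called with the highest mean level per direction. The text gives a selection of these. Besides genes marked as such in the text, Cdh5, Pecam1, Kdr, Nphs1, Alb, Cxcl2, Cxcl3, Cxcl10 and Irgm1 were chosen after their values were seen. Some genes and 1 class are not reported here. Alternatives were other scaling, filters, pseudocounts, tests, samples, a Y-linked term and each library left out.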

Additional observations from a re-analysis of the deposited data

How the results depend on the processing

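No paired analysis was possible because the labels number the animals and give no replicate numbers. The 878 genes called higher and 1127 lower became 420 and 658 when all 19657 genes with a read were tested; the cause was not tested. On RPM as deposited the number lower was 2366. Leaving out 1 WT library gave 156 to 773 higher and 184 to 808 lower, and saline has 2 mice, so either left out leaves 1. RLE size factors (914 and 1068), pseudocounts of 0.1 (848 and 901) and 10 (773 and 1216), edgeR (923 and 1142), DESeq2 (1308 and 1263), the 5 WT libraries alone (1109 and 1424), the fit without SOCS3iKEO LPS libraries (1109 and 1423) and the Y-linked term (962 and 1203) stayed within 1.5 times. Of 328 tested genes that were named by rule or singled out, the number that lost their call was 42 on RPM as deposited, 149 with no filter, 226 and 205 without saline 1 and saline 2, 41, 59 and 105 without LPS 1, LPS 2 and LPS 3 and at most 26 elsewhere. EdgeR called the same way 845 of the 878 and 1033 of the 1127. Of 148 class counts, 80 moved by more than 1.5 times on RPM as deposited, 33 with WT libraries alone and 12 with edgeR. Depth limits genes under about 3 reads, and 2 saline mice limit every test.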
